A study of Homo sapiens with 16 samples.

Results

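The 8 genes described here, FOS, FOSB, FOSL1, FOSL2, JUN, JUNB, JUND and ATF3, encode the FOS and JUN proteins and a stress-induced partner that together make up much of the transcription factor AP-1. They were taken by gene symbol from the count table, which lists 20114 genes, and all 8 were among the 14035 genes with enough reads to be tested. The family was chosen with the doxycycline response of Hs578 cells and its uneven untreated libraries in view, so that response is described with no p-value for its members, and the number past the threshold is given only beside the share of all genes.

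The study set hairpin-mediated knockdown of PRRX1, a homeobox transcription factor of mesenchymal cells, against no knockdown in 2 cell lines. Polyadenylated RNA was sequenced in 16 libraries, 8 from each line. In Hs578, labelled as breast cancer cells, 3 cell lines carrying different doxycycline-inducible hairpins against PRRX1 were sequenced with doxycycline (3 µg/ml, 3 libraries) and without it (3 libraries), as were parental cells without a hairpin with doxycycline (1 library) and without it (1 library). TT642, labelled as rhabdoid tumour cells by sample although the design text counts both lines as triple-negative breast cancer, was sampled in the same 8 ways. Each hairpin is a single derived line, so the spread over 3 libraries is a spread between hairpin lines and not between repeat cultures of 1 line. The parental cells share the drug but lack the hairpin and its vector, no length of treatment is stated in the labels, and a hairpin against another target was not analysed here.

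AP-1 is a dimer of basic leucine zipper proteins. FOS proteins cannot pair with one another and need a JUN partner, whereas JUN proteins can also pair among themselves. FOS, FOSB, JUN, JUNB and ATF3 are early response genes whose messages rise within minutes to hours of growth factors or stress and decay fast, while FOSL1 is a later and longer-lived member that is often abundant in mesenchymal-like breast cancer cells.

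Library totals ran from 13461527 to 24672906 counts. PRRX1 itself was lower with doxycycline in all 6 hairpin pairs, at 37.1, 72.8 and 51.0 CPM (counts scaled to effective library size) in doxycycline-treated Hs578 hairpin lines 1 to 3, against 291, 227 and 262 CPM without the drug, and at 265, 184 and 513 CPM in treated TT642 hairpin lines, against 1213, 1409 and 1301 CPM without it. Both lines had abundant mesenchymal VIM (at least 4081 CPM), and COL1A1, CDH2 and ZEB1 were detected in both, but Hs578 libraries held 10219 to 17802 CPM of FN1 and 20.2 to 46.4 CPM of TWIST1, against 0.194 to 3.96 CPM and 0.514 to 1.59 CPM in TT642 libraries. The epithelial EPCAM, CDH1 and GRHL2 were at most 0.366 CPM in either line, whereas the keratins KRT18 (185 to 401 CPM) and KRT8 (27.7 to 56.4 CPM) were present in Hs578 and at most 1.54 CPM in TT642. SMARCB1, whose loss defines most rhabdoid tumours, was at 87.7 to 125 CPM in Hs578 and 28.8 to 41.6 CPM in TT642. Mitochondrially encoded genes took 3.18 to 5.44% of counts in the treated Hs578 hairpin libraries and 2.16 to 2.79% in the untreated ones, and their part in the results was not tested.

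FOS and FOSB differed most among the members in the description of Hs578, so the stretch before their start sites is shown beside that of the 3 JUN genes. The sequences are the 150 bases upstream of the RefSeq start in GRCh38.p14, on the strand of the gene. Capitals mark the 5-letter core TGACG of the CRE and ATF site (in JUND as its reverse complement), the TATAAA box, and in JUN the 8-letter AP-1 element TGACATCA.
FOS (chr14:75278678-75278827, plus strand): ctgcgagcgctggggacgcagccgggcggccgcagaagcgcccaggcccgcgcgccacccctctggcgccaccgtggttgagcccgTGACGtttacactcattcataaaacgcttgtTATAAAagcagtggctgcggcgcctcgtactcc
FOSB (chr19:45467846-45467995, plus strand): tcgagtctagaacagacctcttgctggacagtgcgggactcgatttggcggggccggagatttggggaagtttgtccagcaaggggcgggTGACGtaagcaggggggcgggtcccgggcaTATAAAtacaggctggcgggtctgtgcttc
JUN (chr1:58784048-58784197, minus strand): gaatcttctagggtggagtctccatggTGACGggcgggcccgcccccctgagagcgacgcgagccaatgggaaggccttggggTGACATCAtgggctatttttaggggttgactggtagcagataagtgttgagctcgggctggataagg
JUNB (chr19:12791336-12791485, plus strand): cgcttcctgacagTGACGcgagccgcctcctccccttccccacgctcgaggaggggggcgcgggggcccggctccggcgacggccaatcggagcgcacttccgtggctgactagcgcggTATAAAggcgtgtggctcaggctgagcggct
JUND (chr19:18281623-18281772, minus strand): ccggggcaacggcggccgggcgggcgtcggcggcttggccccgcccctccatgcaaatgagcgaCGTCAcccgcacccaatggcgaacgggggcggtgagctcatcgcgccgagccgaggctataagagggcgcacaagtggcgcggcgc

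TGACG lay at 64 to 60 bases before the FOS start and 60 to 56 before the FOSB start, with TATAAA at 33 to 28 and 30 to 25 bases before the start. FOSL2, not shown, held TGACG at 66 to 62 bases, close to its place in FOS, and no TATAAA. JUNB had TATAAA at 31 to 26 bases, but its TGACG lay farther out, at 137 to 133. JUN carried TGACG at 123 to 119 and TGACATCA at 67 to 60 bases before the start, and JUND held TGACG on the opposite strand at 86 to 82. The 2 ATF3 entries, neither shown, held between them TGACATCA at 123 to 116 bases and TATAAA at 230 to 225. Searched on both strands, TGACG stood within 150 bases of the start in 15.4% of 35116 RefSeq promoters, TATAAA in 6.71%, and TGACATCA in 1.96%. The full CRE TGACGTCA, which contains TGACG, stood in 1.4%, the AP-1 site TGANTCA in 4.17% and the CArG box bound by SRF in 0.769%, and none of these 3 letter patterns lay in the 5 stretches shown. Farther from the start than its stretch, JUND held the full CRE at 200 to 193 bases. Within 250 bases of the start the full CRE stood in 1.65% of promoters. The table held an entry for 7 of the 8 members, all but FOSL1.

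**Figure D1:**
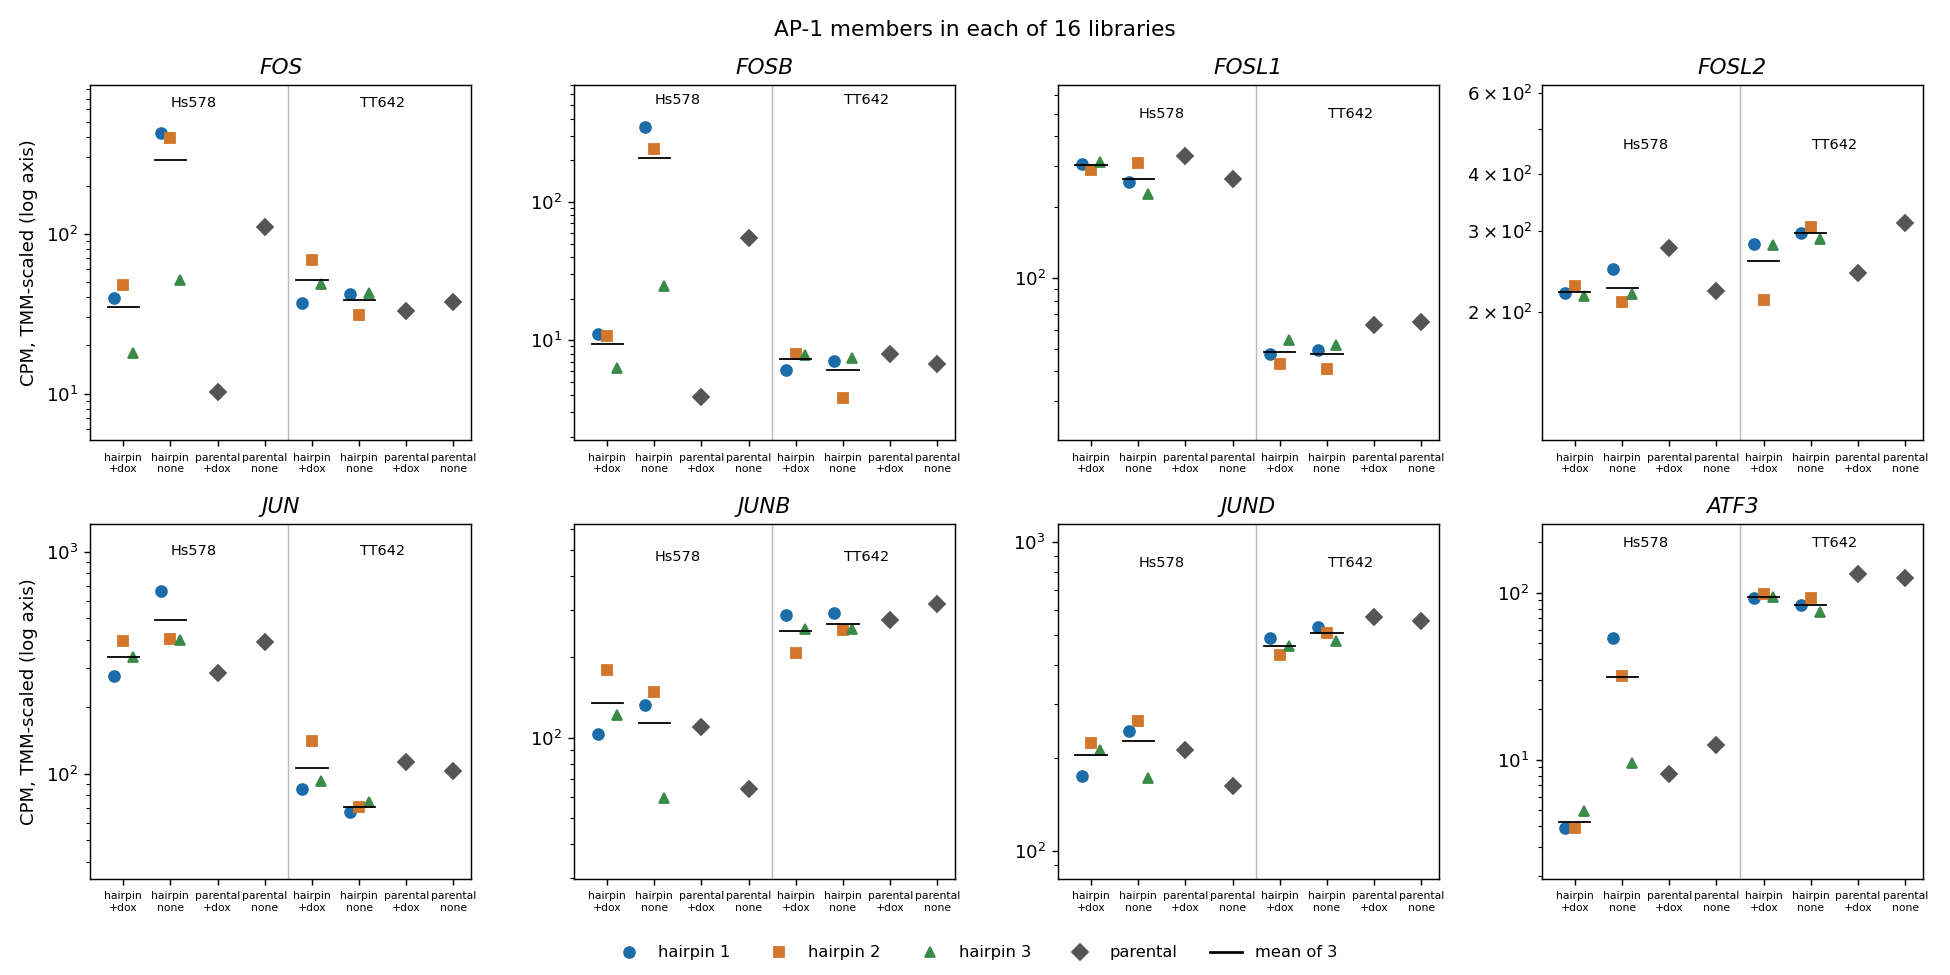
Level of each AP-1 member in every library, in TMM-scaled CPM on a log axis, with 1 panel per gene, Hs578 left and TT642 right of the line, and doxycycline left of none within each block. Points are single libraries by hairpin line or parental cells and bars are means of the 3 hairpin lines. FOS, FOSB and ATF3 stand high in the untreated Hs578 hairpin 1 and 2 libraries, at 426 and 395 CPM for FOS, against 51.3 CPM in hairpin 3.

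In Hs578 the FOS, FOSB and ATF3 messages were lower with doxycycline, and the untreated libraries they were set against were far from even. FOS, the founding immediate early gene of the family, had 39.4, 47.7 and 18 CPM in treated hairpin lines 1, 2 and 3, against 426, 395 and 51.3 CPM in the same lines untreated. The groups did not overlap, but the untreated hairpin 3 library stood next to the treated ones and far below the other untreated hairpin lines. The parental pair, which has no hairpin, had 10.3 CPM of FOS with doxycycline and 111 CPM without it. The parental log2 ratio of treated to untreated was -3.42, beside -3.43, -3.05 and -1.51 in hairpin lines 1, 2 and 3, so the pair without a hairpin lay within the range of the pairs with one. The group means were 35.0 ± 15.3 CPM with doxycycline and 291 ± 208 CPM without (SD, n = 3 each), and the fitted log2 fold change was -3.06 (SE 0.72).

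FOSB, the closest relative of FOS, was the most uneven of the 8. It had 11.1, 10.7 and 6.33 CPM in treated Hs578 hairpin lines 1, 2 and 3, against 352, 244 and 24.5 CPM untreated. Parental cells had 3.85 CPM with doxycycline and 54.6 CPM without it. Again the untreated hairpin 1 and 2 libraries were the high ones, and every treated library was below every untreated one. The log2 ratios of the pairs were -4.97, -4.49 and -1.94 in the hairpin lines and -3.79 in parental cells, and the fitted value over the hairpin lines was -4.47 (SE 0.85). Mean FOSB was 9.38 ± 2.65 CPM with doxycycline and 207 ± 167 CPM without (SD, n = 3 each).

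The other FOS-family genes did not share this pattern. FOSL1, which encodes the FRA1 protein, had 305, 287 and 312 CPM in treated Hs578 hairpin lines 1 to 3, against 255, 307 and 229 CPM untreated, and 331 CPM in treated against 263 CPM in untreated parental cells. FOSL2, which encodes FRA2, had 220.2, 228 and 217 CPM treated, against 248, 211 and 219 CPM untreated, with 276 CPM in treated and 222 CPM in untreated parental cells. For both genes the hairpin groups overlapped, and the fitted log2 fold changes were 0.19 (SE 0.12) for FOSL1 and -0.03 (SE 0.10) for FOSL2.

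Among the JUN genes, JUN itself had 276, 396 and 334 CPM in treated Hs578 hairpin lines 1, 2 and 3, against 667, 402 and 401 CPM untreated. The hairpin 1 library was the only untreated one well above the rest, and the 2 states nearly met at hairpin 2, where the log2 ratio was -0.02. Parental JUN was 284 CPM with doxycycline and 389.9 CPM without. JUNB, which often restrains JUN-driven transcription, had 103, 179 and 122 CPM treated, against 132, 148 and 59.5 CPM untreated, and the pairs went in different directions (log2 ratios of -0.36, 0.27 and 1.03, and 0.77 in parental cells). JUND, the most steadily expressed JUN gene in many tissues, had 175, 224 and 212 CPM treated, against 244, 264 and 172 CPM untreated, also with overlapping groups and mixed directions.

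ATF3, a stress-induced bZIP factor that pairs with JUN proteins, had 3.88, 3.88 and 4.91 CPM in treated Hs578 hairpin lines 1, 2 and 3, against 53.3, 31.6 and 9.50 CPM untreated. Parental cells had 8.17 CPM with doxycycline and 12.2 CPM without. The hairpin groups did not overlap, and the untreated hairpin 1 and 2 libraries were again the high ones. Here the parental pair differed less than any hairpin pair, with a log2 ratio of -0.57, beside -3.74, -2.99 and -0.94 in hairpin lines 1, 2 and 3. The fitted log2 fold change was -2.88 (SE 0.55).

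Over the Hs578 hairpin lines 3 of 8 members, FOS, FOSB and ATF3, passed the threshold (adjusted p under 0.05 over all genes tested), all lower, where 29.3% of all tested genes passed in either direction and 14.1% passed as lower. For 4 of 8, the same genes with JUN, the treated and untreated libraries did not overlap and treated was lower, where that held for 21.9% of tested genes, and for 44.1% in either direction. DESeq2 and limma on log2(FPKM + 1) put 4 past it. Nothing is read from these counts, because this response was in view when the family was chosen. Without the untreated hairpin 1 and 2 libraries, left out because their values were seen to be high, the untreated group is the single hairpin 3 library, and the log2 fold change was -0.56 for FOS, -1.40 for FOSB and -1.16 for ATF3. Leaving out hairpin line 1 from both states of both cell lines left 0 members past the threshold.

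The unevenness was measured across the 3 untreated Hs578 hairpin libraries as the highest over the lowest CPM, each raised by 0.5. The ratio was 14.1 for FOSB, 8.23 for FOS and 5.38 for ATF3, against a median of 1.16 over all 14035 genes tested. These ratios were in view when the family was chosen and only describe the libraries. JUNB followed at 2.48, JUN at 1.66, JUND at 1.53, FOSL1 at 1.34 and FOSL2 at 1.18, near the middle of all genes. In the treated Hs578 libraries the ratio was 1.70 for FOSB, 2.61 for FOS and 1.24 for ATF3, with a median of 1.23 over all genes, and in the untreated TT642 hairpin libraries it was 1.84, 1.38 and 1.20 for the same genes.

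**Figure D2:**
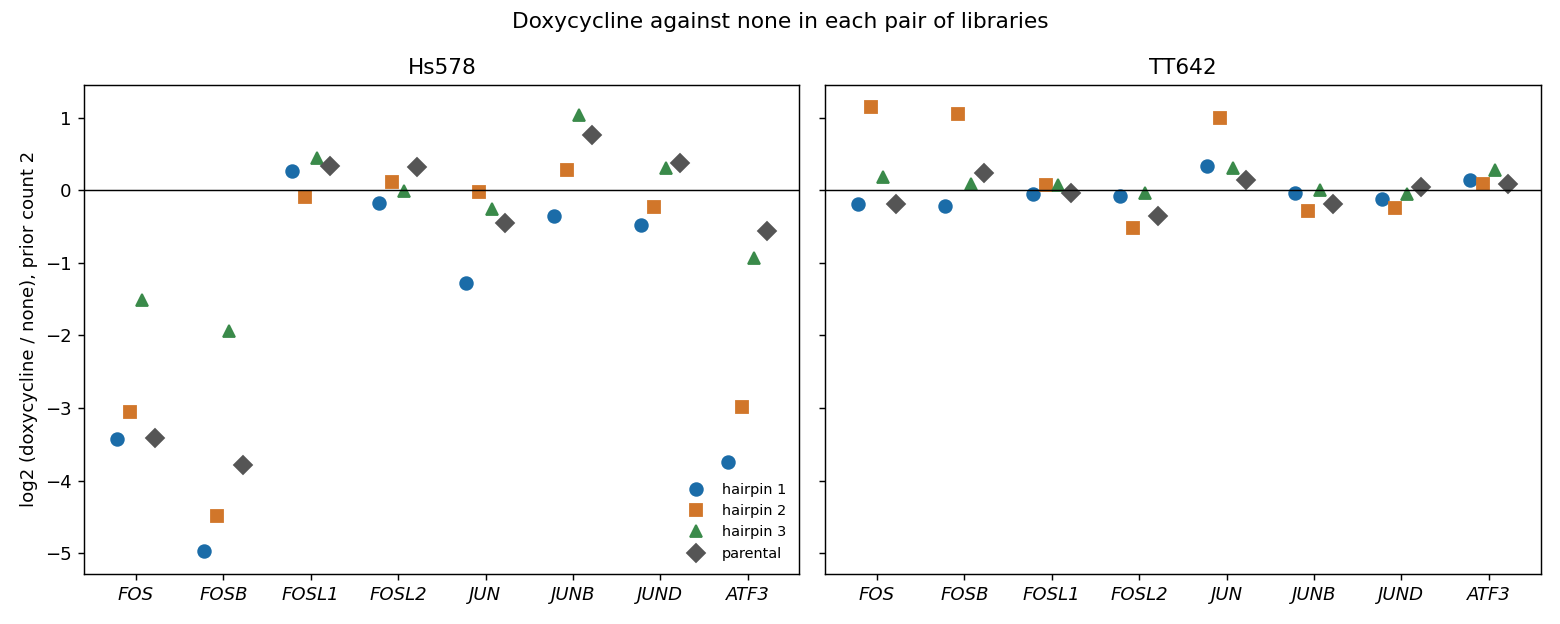
Log2 ratio of doxycycline to no doxycycline for each AP-1 member in each pair of libraries (Hs578 left, TT642 right), with 1 symbol per hairpin line or parental pair and a prior count of 2. In Hs578 all 4 pairs lie below 0 for FOS, FOSB, JUN and ATF3, whereas in TT642 the hairpin 2 pair reaches 1.14 for FOS and the other pairs lie between -0.19 and 0.18.

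The family was chosen with the Hs578 response in view, so the response to hairpin induction was tested in TT642. Earlier results of these data were known at that choice, so the test may not be independent of it. The spread of each gene was estimated over all 16 libraries. The uneven untreated Hs578 libraries therefore enter the SEs and p-values given here, including those of FOS, FOSB and ATF3. No member passed with edgeR's quasi-likelihood test, where 0.0285% of the 14035 tested genes passed. At an unadjusted p under 0.05 there was 1 of 8, JUN, and DESeq2 and limma on FPKM also called 0. With the hairpin line as a block, 46 genes passed in place of 4 and the members remained at 0. A fit of the TT642 libraries alone also passed no member.

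FOS had 36.7, 68.1 and 48.4 CPM in treated TT642 hairpin lines 1, 2 and 3, against 41.9, 30.8 and 42.8 CPM untreated, so only hairpin 2 stood out, and the groups overlapped. The log2 fold change was 0.41 (SE 0.68, adjusted p = 0.96). FOSB was low in all 6 hairpin libraries, with 6.09, 7.99 and 7.85 CPM treated, against 7.09, 3.79 and 7.4 CPM untreated. JUN had 85.0, 140.3 and 92.2 CPM treated, against 67.3, 70.7 and 74.3 CPM untreated. All treated JUN libraries were above all untreated ones, hairpin 2 the most, but with a log2 fold change of 0.58 (SE 0.24) the adjusted p was 0.56.

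ATF3 was also higher without overlap, at 93.1, 97.7 and 93.5 CPM in treated TT642 hairpin lines against 84.3, 92.5 and 76.9 CPM untreated (log2 fold change 0.16, SE 0.43, adjusted p = 0.99). FOSL2 was lower without overlap, at 282, 213 and 279.7 CPM treated against 298, 306 and 288 CPM untreated (log2 fold change -0.20, SE 0.10, adjusted p = 0.67). These 3 of 8 members with groups apart compare with 14.8% of all tested genes (8.54% higher and 6.31% lower). FOSL1, JUNB and JUND overlapped between states, with log2 fold changes of 0.03, -0.09 and -0.14. In TT642 parental cells, FOS had 32.7 CPM with doxycycline and 37.3 CPM without, JUN had 113 CPM with it and 103 CPM without, FOSL2 had 243 CPM with it and 312 CPM without (log2 ratio -0.36), and ATF3 had 129 CPM with it and 122 CPM without. Whether the response differs between the cell lines was not tested, since the members were chosen on the response of 1 of them.

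The cell lines differed in every member when the untreated hairpin lines were compared, a contrast that shares the uneven untreated Hs578 libraries. Those libraries were in view when the family was chosen. The p-values of the untreated contrast therefore describe the fit and are no independent test of the members. FOSL1, JUN, FOS and FOSB were higher in Hs578, and FOSL2, JUNB, JUND and ATF3 were lower. All 8 passed, with 4 in each direction, and all 8 had groups apart, where 80.8% of tested genes passed and 84.1% had groups apart (42.7% higher and 41.4% lower), so the count is close to the background.

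FOSL1 had 255, 307 and 229 CPM in untreated Hs578 hairpin lines, against 49.2, 40.9 and 51.8 CPM in TT642 (log2 fold change 2.48, SE 0.13, adjusted p = 1.22e-10). With doxycycline the difference was 2.64 (SE 0.13). The parental cells, which were not part of the test, showed it too, at 263 CPM in untreated Hs578 and 64.8 CPM in untreated TT642. JUN was higher in Hs578 by 2.79 on the log2 scale without doxycycline (SE 0.25, adjusted p = 7.9e-07) and by 1.66 with it (SE 0.24, adjusted p = 5.0e-05).

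JUND was lower in Hs578 in both states, with log2 fold changes of -1.17 with doxycycline (SE 0.14, adjusted p = 1.5e-06) and -1.16 without (SE 0.14, adjusted p = 1.7e-06). Its untreated levels were 244, 264 and 172 CPM in Hs578, against 531, 509 and 478 CPM in TT642. JUNB was at 132, 148 and 59.5 CPM in untreated Hs578, against 293, 252 and 254 CPM in TT642, a log2 fold change of -1.23 (SE 0.32, adjusted p = 0.0045), and at -0.89 with doxycycline (SE 0.31, adjusted p = 0.023). FOSL2 was a little lower in Hs578, at -0.39 without doxycycline (SE 0.10, adjusted p = 0.0027), and missed the threshold with it, at -0.22 (adjusted p = 0.062).

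For the remaining members the values of each state are given side by side. Whether the difference between the lines depends on the state was not tested. The untreated p-values of FOS, FOSB and ATF3 rest on libraries seen to be uneven before the choice, so nothing is read from them. FOS was higher in untreated Hs578 by 2.92 (SE 0.71, adjusted p = 0.0040), but treated cells gave -0.56 (SE 0.69, adjusted p = 0.47). FOSB gave 5.09 untreated (SE 0.88, adjusted p = 0.00046) and 0.34 treated (SE 0.87, adjusted p = 0.73). ATF3 was lower in Hs578 in both states, by a log2 fold change of -4.48 with doxycycline (SE 0.55, adjusted p = 3.9e-05) and -1.43 without (SE 0.44, adjusted p = 0.014). Its level was 4.22 ± 0.60 CPM in treated Hs578 hairpin lines and 94.8 ± 2.52 CPM in treated TT642 lines (SD, n = 3 each). With doxycycline 5 of 8 members passed, where 80.8% of tested genes did. Without the untreated Hs578 hairpin 1 and 2 libraries the FOS difference was 0.42, with 1 Hs578 library assumed to vary like the other groups (adjusted p = 0.47), and leaving out hairpin line 1 or hairpin line 2 of both cell lines raised its adjusted p to 0.096 or 0.067. JUNB passed no longer without hairpin line 1 (-1.28, adjusted p = 0.052), nor ATF3 without hairpin line 2 (-1.35, adjusted p = 0.13).

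**Figure D3:**
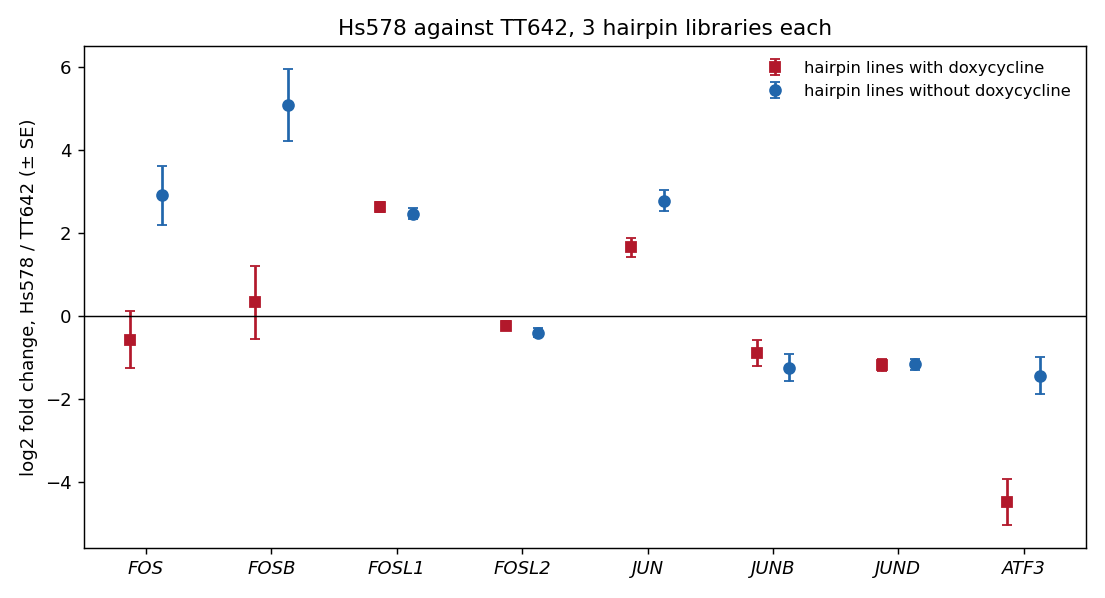
Log2 fold change of Hs578 over TT642 for each AP-1 member, over 3 hairpin libraries per line, with doxycycline (squares) and without it (circles), and error bars of 1 SE from the fit over all 16 libraries. FOSL1, JUND, JUNB and FOSL2 lie at similar values in both states, and FOS is at -0.56 with doxycycline and 2.92 without.

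Levels can be ranked between genes only per transcript length, so the order within the family was read from the deposited FPKM values. FOSL1 led in 6 of 8 Hs578 libraries, and FOS led in the other 2, untreated hairpin lines 1 and 2. In treated Hs578 hairpin lines FOSL1 averaged 175 ± 23.5 FPKM (SD, n = 3) and overlapped with no other member. JUND at 87.7, JUN at 76.5 and JUNB at 59.3 FPKM came next, neighbours that overlapped in range, then FOSL2 at 34.5 and FOS at 21.2, with ATF3 at 2.49 and FOSB at 2.27 last and overlapping. In the untreated Hs578 lines FOS at 171 ± 119 and FOSL1 at 168 ± 20.1 FPKM (SD, n = 3 each) overlapped in range, as did FOSL1 with JUN at 120 and JUN with JUND at 105, and JUNB, FOSB, FOSL2 and ATF3 ran from 53.8 to 25.1 with overlapping neighbours.

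In TT642 the order was different and steadier. JUND came first and JUNB next in all 8 libraries. Treated hairpin lines averaged 237 ± 16.5 FPKM of JUND and untreated lines 262 ± 12.5 FPKM, with JUNB at 132 ± 21.6 and 141 ± 12 FPKM (SD, n = 3 each). ATF3 came after them, at 74.4 FPKM treated and 65.9 FPKM untreated, above FOSL2 at 45.6 and 51.0 FPKM. FOS, FOSL1 and JUN followed between 19.5 and 34.9 FPKM, with neighbours from FOSL2 to JUN overlapping in treated lines and only FOS and JUN overlapping in untreated ones, and FOSB was last at 2.20 FPKM treated and 1.81 FPKM untreated.

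The messages of the FOS-family genes together made up 50.8% of the summed FPKM of the 8 members in treated Hs578 hairpin lines. Their share was 57.5% in untreated Hs578 hairpin lines, against 19.6% in treated and 18% in untreated TT642 lines. FPKM per CPM of the same gene varied between libraries, from 0.467 to 0.751 for FOS, so shares by FPKM carry that scaling.

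**Figure D4:**
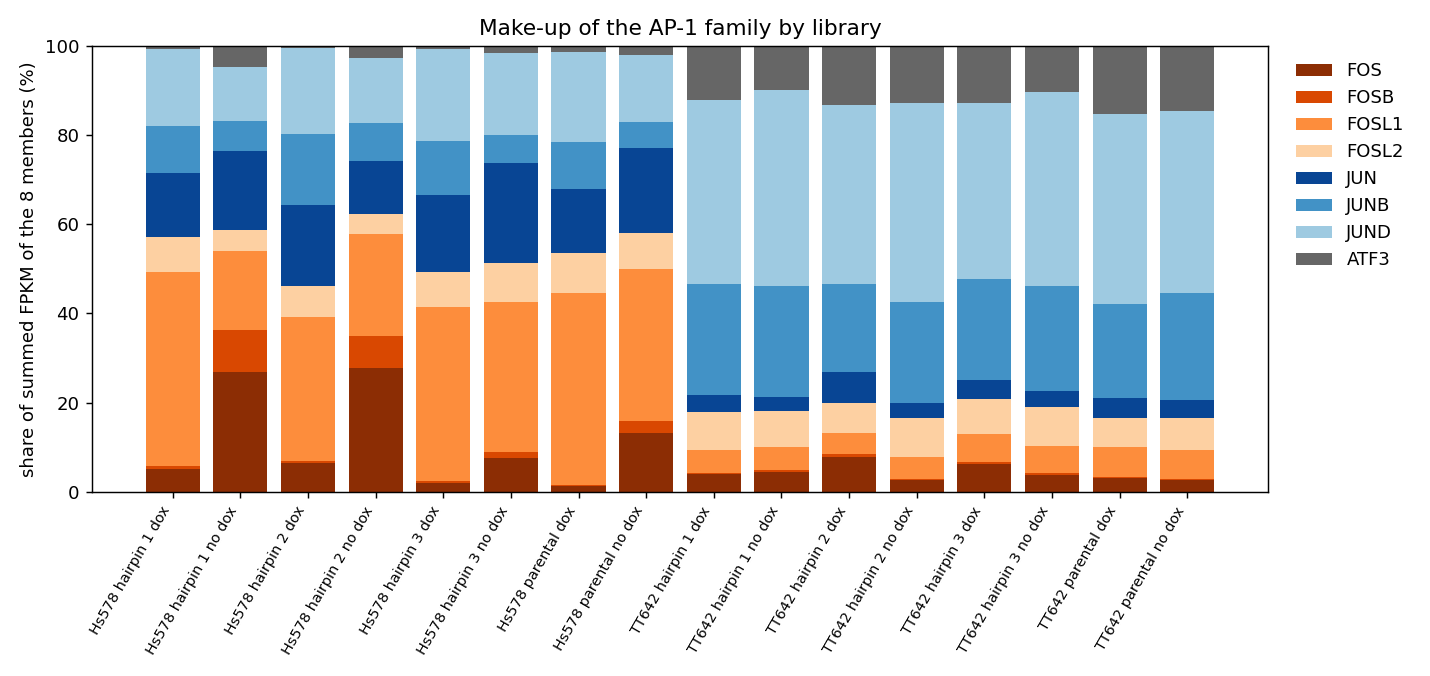
Share of each AP-1 member in the summed FPKM of all 8 members, as stacked bars that reach 100%, for each of the 16 libraries. FOSL1 takes 32.4 to 43.5% in treated Hs578 hairpin lines, whereas JUND takes 39.6 to 41.4% in treated TT642 hairpin lines.

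TT642 hairpin lines were also set against TT642 parental cells over both doxycycline states, with 6 hairpin libraries and 2 parental ones. These come from 3 hairpin lines and a single parental line, each sequenced with and without doxycycline. The fit treated the libraries as independent, so its p-values here may be too small for a comparison of lines. FOSL1 was the single member of 8 to pass, where 9.01% of tested genes did (4.18% higher and 4.83% lower). It had 47.3, 42.8 and 54.5 CPM in treated and 49.2, 40.9 and 51.8 CPM in untreated hairpin lines, against 63.0 CPM in treated and 64.8 CPM in untreated parental cells, a log2 fold change of -0.42 (SE 0.12, adjusted p = 0.042). The call did not hold when either parental library was left out (adjusted p = 0.28 without the treated one and 0.27 without the untreated one) or hairpin line 1 (adjusted p = 0.13), nor without any single hairpin 1 or hairpin 2 library (adjusted p of 0.059 to 0.066). ATF3 was also lower without overlap, at 76.9 to 97.7 CPM over 6 hairpin libraries. Parental cells had 129 CPM treated and 122 CPM untreated. ATF3 did not pass (log2 fold change -0.49, SE 0.41, adjusted p = 0.51), although it passed in a fit of the TT642 libraries alone. JUND was lower without overlap too, at a mean of 482 against 564 CPM (log2 fold change -0.23, SE 0.13, adjusted p = 0.31). Groups were apart for 30.5% of all tested genes, and apart with hairpin lines lower for 15.6%.

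The wider pathway was followed through lists of known genes. EGR1, another immediate early factor, shared the uneven pattern in untreated Hs578, with 291, 314 and 250 CPM in treated hairpin lines 1, 2 and 3, against 1009, 862 and 82.8 CPM untreated. The hairpin 3 pair went the other way from pairs 1 and 2, and EGR1 did not pass (adjusted p = 0.23). In TT642, treated EGR1 was above untreated in every hairpin pair, at 374, 730 and 452 CPM against 199, 223 and 222 CPM, without passing (log2 fold change 1.27, SE 0.69, adjusted p = 0.72). DUSP1, the phosphatase that switches off MAP kinases, had 51.1, 59.8 and 73.3 CPM in treated Hs578 hairpin lines, against 384, 224 and 55.6 CPM untreated, with hairpin 3 again low when untreated. SRF, the factor that binds the serum response element of FOS, was even, at 78.5 CPM in treated and 73.8 CPM in untreated Hs578 hairpin lines.

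Of 22 immediate early genes outside AP-1 that were tested, 1 was higher and 4 were lower past the threshold in treated Hs578 hairpin lines, with a list median of -0.54 where the median of all genes was 0. They include TRIB1 at -1.57 (SE 0.30), KLF4 at -1.32 (SE 0.19) and DUSP1 at -1.85 (SE 0.55), and IER3 was higher at 0.52 (SE 0.13). The mean log2 CPM of this list was 4.90, 5.03 and 4.97 in treated hairpin lines 1, 2 and 3, against 5.99, 5.76 and 4.73 untreated. The hairpin 3 pair thus went the other way, and parental Hs578 cells had 4.95 with doxycycline and 5.08 without. Of 12 genes that ERK signalling induces as feedback, 0 were higher and 7 lower, with DUSP6 at -1.17 (SE 0.29) and a median of -0.50. The mean log2 CPM of these genes was 5.69, 5.88 and 5.67 in treated hairpin lines 1, 2 and 3, against 6.32, 6.21 and 5.95 untreated. Parental Hs578 cells went the other way, with 6.33 under doxycycline and 6.10 without it. Of 9 genes listed as the stress response arm of ATF3, 0 were higher and 6 lower, with a median of -0.72. Among them were GDF15, a secreted stress factor, at -2.08 (SE 0.33) and SESN2 at -1.30 (SE 0.13). This list did not follow the uneven ATF3 levels. Its mean log2 CPM was 6.05, 6.64 and 6.38 in untreated Hs578 hairpin lines 1, 2 and 3, lowest where ATF3 was highest. In the same lines treated it was 5.33, 5.76 and 5.55, and parental cells had 6.24 with doxycycline and 6.39 without. Whether the lists moved differently in hairpin and parental pairs was not tested. For the other lists the counts higher and lower were 0 and 7 of 21 other bZIP partners (BACH1 at -0.63), 2 and 6 of 20 upstream MAP kinase and SRF genes (ELK4 at -0.47), 3 and 1 of 12 heat shock genes (HSPB1 at 0.75), and 2 and 1 of 22 known AP-1 targets, with TIMP1 at 1.11 and VEGFA at -0.78. Beside these counts stand 15.2% of all tested genes higher and 14.1% lower, and the split moves to 1352 higher and 3112 lower, in place of 2139 and 1979, with limma on log2(FPKM + 1).

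In treated TT642 hairpin lines none of the 118 tested genes of these 7 lists passed with edgeR, while 12 had an unadjusted p under 0.05 and DESeq2 and limma called 0.

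Between the untreated lines, 14 of 22 known AP-1 targets were higher and 6 lower in Hs578, with a list median of 1.90 where the median of all genes was 0.01. PLAUR, the urokinase receptor, was at 100.6 CPM in Hs578 and 6.59 CPM in TT642 (log2 fold change 3.94, SE 0.19), and IL11 at 45.7 and 3.76 CPM. IL6 averaged 22.6 and 0.394 CPM. LIF and TIMP1 went the other way, at 50.7 and 134 CPM in Hs578 against 201 and 488 CPM in TT642. Of the stress genes 1 of 9 was higher and 8 were lower in Hs578, with a median of -1.79, as ATF3 was.
The counts higher and lower in Hs578 were 11 and 8 of 22 immediate early genes, 5 and 13 of 21 bZIP partners, 12 and 7 of 20 MAP kinase and SRF genes, 8 and 4 of 12 ERK feedback genes, and 5 and 3 of 12 heat shock genes, beside 41% of all genes higher and 39.7% lower. In TT642 hairpin lines against parental cells, 0 ERK feedback genes were higher and 4 of 12 were lower, with ETV1 at -2.36 and DUSP6 at -1.46, and 2 AP-1 targets were higher and 4 of 22 lower, with MMP1 at -1.74, beside 4.18% of all genes higher and 4.83% lower.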

How the data were processed

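Gene counts and FPKM values of 16 libraries (2 cell lines, parental or with 1 of 3 hairpins, with or without doxycycline) were used as the authors deposited them. Per the labels' protocols, polyadenylated RNA from RNeasy extracts went into stranded TruSeq mRNA libraries, and per the submitters' processing notes the genome build was hg19. No aligner, counting tool, annotation or strand setting is named in the labels or headers. Without a stated strand setting, reads of FOSB, FOSL2 and JUNB could be shared with the genes that overlap them (ERCC1, FLJ31356 and AC104695.3, and HOOK2). The deposited counts were whole numbers per gene, and the deposited FPKM values, scaled by the authors for length and depth, covered 20111 of 20114 genes and ranked levels between genes.

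Counts were tested with edgeR 4.0.16 (R 4.3.3), using the quasi-likelihood F-test with TMM scaling, edgeR's default expression filter and robust spread, in 1 fit of all 16 libraries as 8 groups (8 residual degrees of freedom). Benjamini-Hochberg adjustment ran over all 14035 genes tested, with a threshold of 0.05. The fit was run on simulated data for TT642 induction only, with the same spread set for every gene. That run does not cover genes as uneven as FOS, FOSB and ATF3. CPM values are TMM-scaled, and log2 ratios used a prior count of 2. DESeq2 1.42.0 and limma 3.58.1 on log2(FPKM + 1) and log2(FPKM + 0.1) were alternatives, as were other filters and scalings, 1 cell line only, a replicate block and leaving libraries out. The single parental libraries have no replicates of their own, so their tests borrow the spread of the hairpin groups. Nothing says that hairpin lines were grown as separate repeat experiments, and each p-value reflects the variation among these libraries, which may be technical.

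Same-numbered hairpin libraries come from the same derived line, per the titles, and so are pairs. As a check, each library's distance from its group mean was correlated over all tested genes between the treated and untreated library of a hairpin line. The correlation for hairpins 1, 2 and 3 was 0.13, -0.03 and 0.00119 in Hs578 and 0.44, 0.42 and 0.42 in TT642. Between differently numbered libraries it ran from -0.11 to 0.11 in Hs578 and from -0.30 to -0.09 in TT642, so in Hs578 the pairing rests on the titles alone.

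The members and lists were chosen with earlier results of these data known. Genes of the lists were named by a rule: up to 4 per direction and comparison, with the largest log2 fold change among those past the threshold and averaging at least 2 in log2 CPM, together with EGR1, DUSP1 and SRF. Not every gene this rule names is reported here. Promoters came from RefSeq (GRCh38.p14) and were not compared with coordinates of the count table.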

Additional observations from a re-analysis of the deposited data

Results flagged for a closer look

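The JUN pairs lay on opposite sides of 0 in the 2 cell lines. All 3 Hs578 hairpin pairs were lower with the drug and all 3 TT642 pairs were higher, with mean log2 ratios of -0.52 in Hs578 and 0.54 in TT642. The Hs578 mean rests largely on hairpin 1 (-1.27, beside -0.02 and -0.26 in hairpins 2 and 3), and the TT642 mean on hairpin 2 (0.99, beside 0.34 and 0.31 in hairpins 1 and 3). JUN did not pass the threshold in TT642 (adjusted p = 0.56) and was not among the members past it in Hs578. The parental pairs without a hairpin lay on the same sides, at -0.45 in Hs578 and 0.14 in TT642.

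ATF3 likewise had mean log2 ratios of -2.56 in the Hs578 hairpin pairs and 0.17 in the TT642 pairs, with every pair of a line on 1 side and parental pairs at -0.57 in Hs578 and 0.08 in TT642. ATF3 did not pass in TT642 (adjusted p = 0.99). The difference between the lines was not tested for either gene, because both were chosen with the Hs578 response in view.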

How the results depend on the processing

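The number of members past the threshold in Hs578 hairpin lines, 3, became 4 with DESeq2 and with limma on FPKM at either pseudocount, 1 with libraries of 1 cell line only, and 1 without the untreated hairpin 1 and 2 libraries (chosen after seeing the data, which leaves 1 untreated library with the spread of the other groups), and ran from 0 to 3 over 9 fits that each left out a library or a hairpin line. Between untreated cell lines the 8 members became 5 in the comparison of treated lines and 6 to 8 over the leave-one-out fits. For TT642 hairpin lines against parental cells the count of 1 became 2 with 1 cell line only, where ATF3 also passed, and ran from 0 to 1 over 11 leave-one-out fits. For TT642 induction it was 0 in every alternative run. The share of the 4 FOS-family genes in TT642 was 28.6% treated and 29.6% untreated by CPM, which is not per length, in place of 19.6% and 18% by FPKM. With the replicate block, which pairs hairpin lines, no member's call changed, the Hs578 count stayed at 3, and TT642 stayed at 0.

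FOS between the lines changed sign with doxycycline (-0.56). FOSL1 in TT642 induction was -0.0349 and -0.0361 on log2(FPKM + 1) and log2(FPKM + 0.1), and -0.0700 to 0.109 over the leave-one-out fits. Leave-one-out ranges that crossed 0 were also found for FOSB in TT642 induction (-0.0364 to 0.513), JUNB in TT642 induction (-0.204 to 0.0237), FOSL2 in TT642 hairpin lines against parental cells (-0.0710 to 0.0866), and FOSL2 (-0.103 to 0.0478) and JUNB (-0.0654 to 0.533) in Hs578 induction. The TT642 values among these did not pass in any of these fits, and the cause of the changes was not tested. Of 568 member results under alternatives, 533 kept direction and side of the threshold or moved by less than the replicate spread. In Hs578 induction a member's fold change was judged by that spread alone, even where the member no longer passed the threshold. Over the leave-one-out fits there, the edgeR adjusted p reached 0.18 for FOS, 0.11 for FOSB and 0.080 for ATF3. The median log2 fold change over all genes was -0.0754 in Hs578 induction and -0.106 between the lines on log2(FPKM + 1), and -0.123 and -0.146 on log2(FPKM + 0.1), against 0 and 0.01 from the counts. Over all genes the count past the threshold ran from 840 (without hairpin line 3) to 4862 in Hs578, was 117 without the untreated hairpin 1 and 2 libraries, and ran from 0 to 76 in TT642 (76 by DESeq2) and from 127 to 1513 for hairpin against parental TT642.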

Other observations

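Within Hs578, FOS and FOSB moved together over 8 libraries (Pearson r 0.98, Spearman rho 0.98, and r 0.95 without the 2 libraries farthest from the median of FOS). FOS and ATF3 had r 0.82, which became 0.27 without those libraries. FOSL1 ran against FOS, with r -0.42 and rho -0.67. FOS and FOSB in TT642 had r 0.58, and 0.23 without the farthest libraries. JUNB and JUND had r 0.84 in Hs578 (0.65 without the farthest libraries) and 0.80 in TT642 (0.48 without them). The points share 1 scaling per library, and each set holds 4 pairs of libraries, so these values only describe.

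Over all 16 libraries, after the mean of each cell line was removed, the genes outside the family most like FOS among 10351 expressed genes were YLPM1 (r 0.87), KIAA1468 (r 0.87), TMEM185B (r 0.86), ZFYVE26 (r 0.86) and CANT1 (r 0.86). Among those most like FOSL1 were P2RX5 (r 0.88), COL9A2 (r 0.85), SGK223 (r 0.83) and CHD7 (r 0.82). KIAA1468 had r 0.91 with FOS within Hs578 and 0.06 within TT642, so its place rests on Hs578.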
